A study of Macaca mulatta with 2 samples.

Results

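The hypoxia response genes described here were 10 genes, found by symbol among the 33618 rows of the deposited count table. They comprise the 3 alpha subunits of the hypoxia-inducible factors (HIFs) and 7 HIF target genes outside glycolysis. All 10 were in the table. The samples were the prefrontal cortex of 2 infant rhesus macaques at postnatal day 28, 1 control and 1 given sevoflurane, a volatile anesthetic, with 1 RNA sequencing library each. By the labels, sevoflurane at 2.5 to 3% was inhaled for 4 h on about postnatal days 7, 14 and 28. The study's results text gives the same days, whereas its methods place the later exposures at older ages. By those methods the anesthetic was carried in pure oxygen through an endotracheal tube, the animals were kept in a warm box, and the tissue was taken straight after the last exposure. Oxygenation and blood pressure were not recorded during the anesthesia. The paper adds that its protocol matched that of an earlier study, in which neither hypoxia nor hypotension was seen. The handling of the control animals is not described. By the methods, females made up the control group, whereas the anesthesia group included 1 male. On 7 Y-linked genes, the control library held 3 reads and the sevoflurane library 4308. With 1 animal per group, every difference below is between these 2 libraries, and animal, sex and exposure cannot be told apart.

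Cells read oxygen through the HIF alpha subunits. When oxygen is sufficient, prolyl hydroxylases of the EGLN family mark the alpha subunits, the VHL ubiquitin ligase binds the mark, and the protein is degraded. When oxygen is short, the alpha subunits persist, pair with ARNT or ARNT2 and switch on genes for vessel growth, mitophagy, pH control and glycolysis. The alpha subunits are thus set largely at the protein level, and the transcripts of the targets are the usual RNA readout of the pathway.

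The control library held 16960880 reads and the sevoflurane library 9839105. Counts were scaled by the TMM method and are given as CPM, a level relative to the scaled library size. A ratio is the log2 ratio of sevoflurane over control with a prior count of 2, and its 95% interval is derived from the sevoflurane library's share of the gene's reads (exact Clopper-Pearson method). With 1 library per group, the intervals cover counting error only, and no p-value can be given. The sources used here name no molecular identifiers, so repeat reads of the same molecule, if present, were not removed by them and could leave the intervals too narrow. A gene was tested where one of the libraries reached 1 CPM, which 18050 genes did. A gene is said to be higher or lower where its interval excluded equal expression, and is called 2-fold higher or lower where its log2 ratio also reached 1 in size. Of the genes tested, 7.56% were called 2-fold higher and 5.47% were called 2-fold lower. Without the fold threshold, 28.4% were higher and 28.1% were lower. Intervals are narrower for genes with more reads, so these shares depend on how deeply the genes were counted. The median log2 ratio over all genes tested was -0.0048.

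The 3 alpha subunit genes were each higher in the sevoflurane library, and none of the 7 target genes was. Of the targets, ANKRD37, EGLN3, NDRG1 and VEGFA were lower, while the intervals of BNIP3, CA9 and ADM held equal expression. ANKRD37 was the 1 member of 10 called 2-fold lower, beside 5.47% of all genes, and 0 of 10 members were called 2-fold higher, beside 7.56%. Without the fold threshold 4 members were lower and 3 higher, beside 28.1% and 28.4% of all genes. Over all 10 members the median log2 ratio was -0.11, over the 7 targets -0.21 and over the 3 alpha subunits 0.51. All 10 passed the filter on low values. ADM passed only through the sevoflurane library, at the smallest number of reads that allows it (10), and CA9 only through the control library, again at the smallest number (17). ANKRD37 also passed only through the control library, where it was higher, so its difference is tied to the way it entered.

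**Figure D1:**
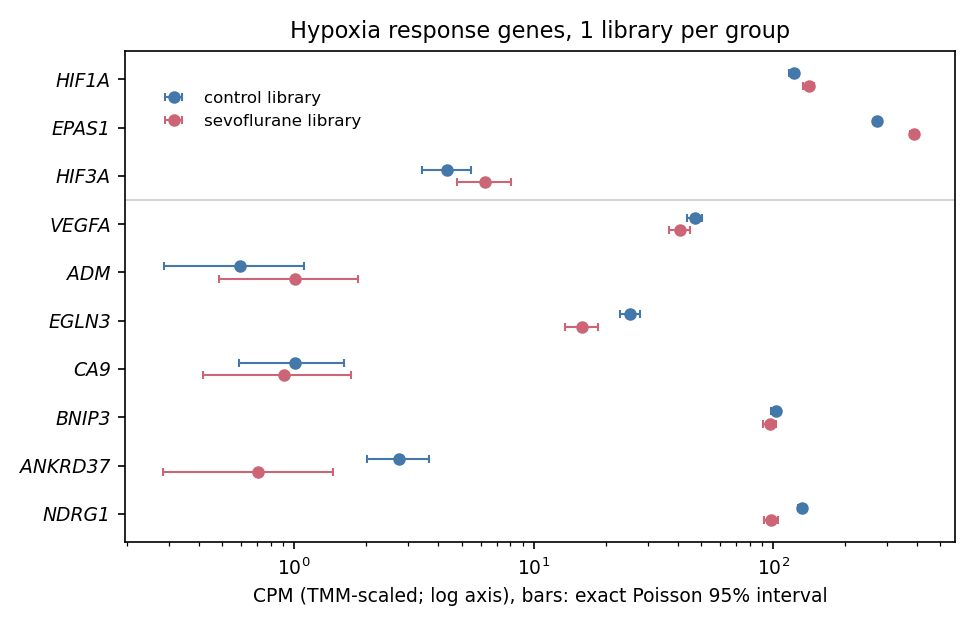
Level of each of the 10 hypoxia response genes in CPM (log axis) in the control library (blue) and the sevoflurane library (red), with exact Poisson 95% intervals as bars; there is 1 library per group. The alpha subunits, above the line, lie to the right in the sevoflurane library, for example EPAS1 at 387 against 271 CPM, and ANKRD37 lies furthest to the left of its control value, at 0.705 against 2.74 CPM.

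HIF1A, which encodes the alpha subunit found in nearly every cell type, had 2052 control reads and 1399 sevoflurane reads. These were 122 and 141 CPM, a log2 ratio of 0.21 (95% interval 0.11 to 0.30). The sevoflurane level was thus 1.15-fold the control level, a difference beyond counting error but within the central 50% of all genes, since the ratio stood at percentile 65.4 of the genes tested.

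EPAS1 encodes the second alpha subunit, HIF-2 alpha, which in the brain is prominent in endothelial cells and astrocytes. It had 4555 control reads and 3840 sevoflurane reads, or 271 and 387 CPM. Its log2 ratio was 0.51 (95% interval 0.45 to 0.57), at percentile 80.8 of the genes tested. The 1.43-fold difference was the most precisely counted among the members, and it stayed well under the 2-fold threshold.

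HIF3A encodes the third alpha subunit, some splice forms of which restrain the other two. It had 73 control and 62 sevoflurane reads, or 4.34 and 6.24 CPM. The log2 ratio was 0.51, close to that of EPAS1, but its interval of 0.01 to 1.03 only just excluded equal expression. In 1 random draw that thinned the control library to equal depth the log2 ratio was 0.55, as large as before, with an interval of -0.02 to 1.18. In RefSeq's gene table for the macaque assembly MMU8v2.0, HIF3A shares part of its span with 3 non-coding genes that are not rows of the count table under those symbols.

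Within a library, the ratio of reads on a pair of genes needs no scaling between libraries. Reads on EPAS1 per read on HIF1A went from 2.22 in control to 2.74 after sevoflurane, a ratio of ratios of 1.24 with an exact conditional 95% interval of 1.14 to 1.34. The balance of these 2 transcripts thus differed beyond counting error, on the side of EPAS1. For HIF3A per HIF1A the ratio of ratios was 1.25 (95% interval 0.87 to 1.78) and for HIF3A per EPAS1 it was 1.01 (0.70 to 1.44). Neither of the pairs with HIF3A differed beyond counting error at this depth.

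**Figure D2:**
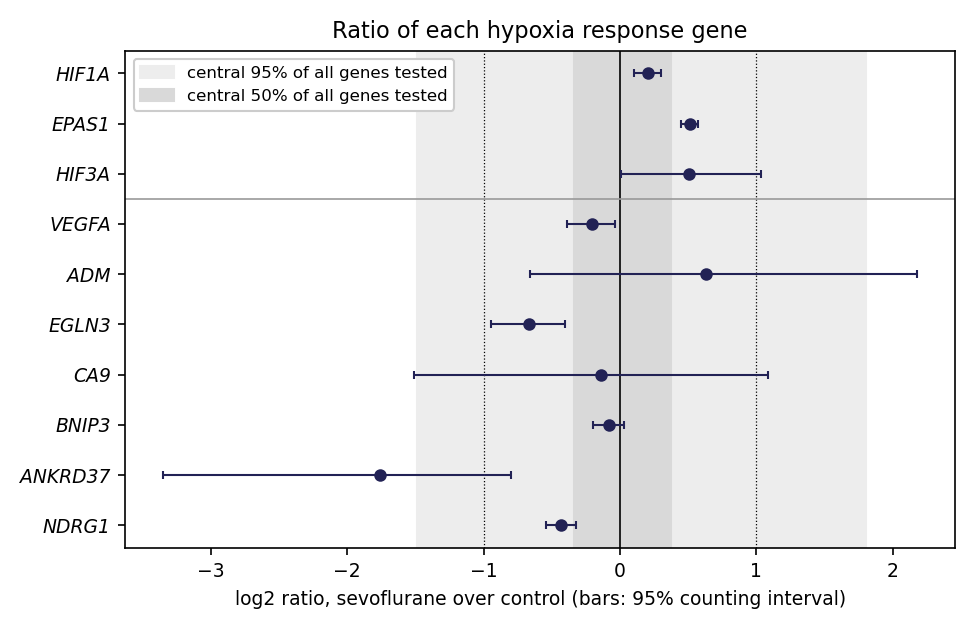
Log2 ratio of sevoflurane over control for the 10 hypoxia response genes, with 95% counting intervals; shading marks the central 50% and 95% of the ratios of all genes tested and dotted lines mark 2-fold. HIF1A, EPAS1 and HIF3A lie right of 0, EGLN3, NDRG1, VEGFA and ANKRD37 lie left of it, and ANKRD37, at -1.76, is the 1 member outside the central 95% (-1.49 to 1.81).

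Among the targets, ANKRD37 differed most. It encodes a small ankyrin repeat protein and is known as a HIF target. The control library held 46 of its reads and the sevoflurane library 7, or 2.74 CPM (exact Poisson 95% interval 2.0 to 3.65) and 0.705 CPM (0.28 to 1.45). The log2 ratio was -1.76 with a 95% interval of -3.35 to -0.80, at percentile 1.70 of the genes tested. Without the prior count its level was 3.88-fold lower. The direction was outside counting error, but 7 reads leave the size of the difference loose, and the interval reaches from under 2-fold to far beyond it. In the same RefSeq table its span overlaps that of LRP2BP. LRP2BP had 15 and 11 reads and a log2 ratio of 0.27 (95% interval -0.96 to 1.53). Whether the counting used strand is not given in the sources used here, so reads in the shared stretch could belong to either gene.

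EGLN3 encodes the prolyl hydroxylase PHD3, which marks the alpha subunits for degradation and is itself a HIF target, closing a feedback loop. It had 426 control and 158 sevoflurane reads, or 25.4 and 15.9 CPM. The log2 ratio was -0.67 (95% interval -0.94 to -0.41), at percentile 11.3, a level 1.59-fold lower in the sevoflurane library. Its relative EGLN1, the main oxygen sensor of the family, was lower as well, from 2271 to 1056 reads, a log2 ratio of -0.35 (95% interval -0.45 to -0.24). Reads on EGLN3 per read on EGLN1 went from 0.188 to 0.150, a ratio of ratios of 0.80 (95% interval 0.65 to 0.97). EGLN3 was thus lower relative to EGLN1, by a margin that just exceeded counting error. The pair was chosen after read counts had been seen, so its interval is a description only.

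NDRG1 encodes a stress-responsive cytoplasmic protein that HIFs induce and that is also abundant in myelinating glia. It had 2220 control and 973 sevoflurane reads, or 132 and 98.0 CPM. The log2 ratio was -0.43 (95% interval -0.54 to -0.32), at percentile 20.1, a 1.35-fold lower level. The mature oligodendrocyte markers had a median log2 ratio of -1.26. All 8 were lower, beside 28.1% of all genes, from MOG at -1.90 to MBP at -0.56. Of the 8, 7 were called 2-fold lower, beside 5.47%. The summed level of these markers was 4159 CPM in control and 2029 CPM after sevoflurane. Their part in the NDRG1 value was not tested, and in bulk tissue fewer cells of a type and less RNA per cell cannot be told apart.

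The other NDRG genes did not share one direction. NDRG4, a mainly neuronal member of the family, was lower, from 19111 to 7286 reads with a log2 ratio of -0.63 (95% interval -0.67 to -0.59). NDRG2, which is abundant in astrocytes, was higher, with 6889 control reads and 5011 in the smaller sevoflurane library and a log2 ratio of 0.30 (95% interval 0.25 to 0.35). NDRG3 had a log2 ratio of 0.07 with an interval whose lower limit was almost at 0. Reads on NDRG1 per read on NDRG2 went from 0.322 to 0.194, a ratio of ratios of 0.60 (95% interval 0.55 to 0.66). This pair, too, was chosen after read counts had been seen.

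VEGFA encodes the growth factor that drives new vessel formation and vessel permeability, the classic secreted product of hypoxic tissue. It had 790 control and 404 sevoflurane reads, or 47.0 and 40.7 CPM. The log2 ratio was -0.21 (95% interval -0.39 to -0.03), at percentile 33.8, a level 1.16-fold lower. The interval excluded equal expression narrowly, and with library totals in place of TMM its upper limit was -0.0071.

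BNIP3 encodes a receptor on the outer mitochondrial membrane that marks mitochondria for mitophagy. It had 1720 control and 960 sevoflurane reads, or 102 and 96.7 CPM. The log2 ratio was -0.08 (95% interval -0.20 to 0.03), so any difference was small and not separable from counting error. Its relative BNIP3L, which serves the same pathway, was lower, from 1143 to 503 reads with a log2 ratio of -0.42 (95% interval -0.58 to -0.27). Reads on BNIP3 per read on BNIP3L went from 1.5 to 1.91, a ratio of ratios of 1.27 (95% interval 1.11 to 1.45). The balance of the pair thus differed, but the pair was chosen after read counts had been seen.

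ADM and CA9 were near the limit of detection in both libraries. ADM, the precursor of the vasodilator peptide adrenomedullin, had 10 reads in each library, or 0.595 CPM (95% interval 0.29 to 1.09) and 1.01 CPM (0.48 to 1.85). Its log2 ratio of 0.64 had a 95% interval of -0.66 to 2.18. CA9, a membrane carbonic anhydrase that is nearly silent in normoxic brain, had 17 control and 9 sevoflurane reads, or 1.01 CPM (95% interval 0.59 to 1.62) and 0.906 CPM (0.41 to 1.72). Its log2 ratio was -0.14 (95% interval -1.51 to 1.09). At this depth neither a 2-fold higher nor, for CA9, a 2-fold lower level could be told from equal expression. The span of CA9 overlaps that of ARHGEF39 in the RefSeq table, and ARHGEF39 had 26 and 13 reads.

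**Figure D3:**
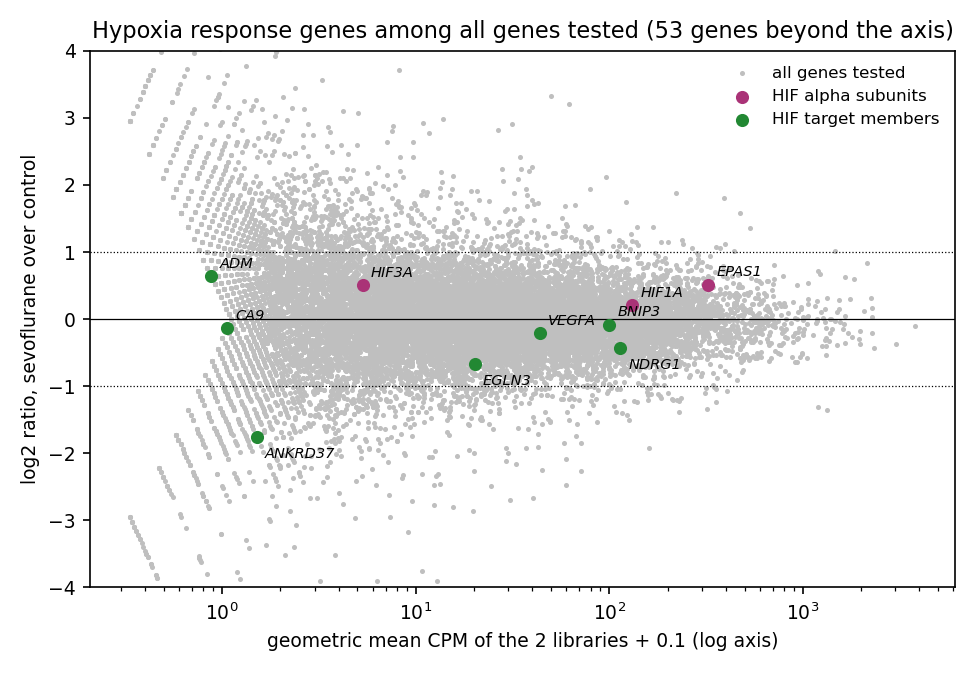
Log2 ratio of sevoflurane over control against the geometric mean CPM of the 2 libraries (log axis) for the 18050 genes tested (grey), of which 53 lie beyond the axis at a size of 4; HIF alpha subunits are purple and HIF target members green, and dotted lines mark 2-fold. The alpha subunits lie above 0 and the targets other than ADM below it, all within the cloud of other genes, with ANKRD37 at -1.76 on its lower side among genes of few reads.

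Besides the alpha subunits, 12 genes of the oxygen-sensing machinery were looked up, and all were tested. Of these, 2 were higher and 5 were lower, beside 28.4% and 28.1% of all genes, and the intervals of 5 held equal expression. None was called 2-fold higher or lower, beside 7.56% and 5.47% of all genes, and the median log2 ratio was -0.11. Among the hydroxylases, HIF1AN, which blocks the alpha subunits from binding their coactivators, was lower from 2503 to 1214 reads (-0.28, 95% interval -0.39 to -0.19), beside the lower EGLN1. EGLN2 had a log2 ratio of 0.13 (95% interval -0.01 to 0.27), and its interval lay above 0 with library totals or upper-quartile scaling.

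The parts of the VHL ubiquitin ligase had lower or unseparated values. VHL itself, which recognises the hydroxylated alpha subunit, had 584 and 370 reads and a log2 ratio of 0.10 (95% interval -0.09 to 0.29). The scaffold CUL2 was lower at -0.27 (95% interval -0.44 to -0.11) and the RING subunit RBX1 at -0.46 (-0.71 to -0.23), the lowest of the machinery. The elongins, listed as TCEB2 and TCEB1, had log2 ratios of -0.15 and -0.06, with intervals that held equal expression.

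The dimerisation partners went opposite ways. ARNT, the partner in most tissues, was higher, with 1054 control reads and 800 in the smaller sevoflurane library, or 62.7 and 80.6 CPM, a log2 ratio of 0.36 (95% interval 0.23 to 0.50). ARNT2, the partner enriched in neurons, was lower from 7590 to 3538 reads, or 452 to 356 CPM, a log2 ratio of -0.34 (95% interval -0.40 to -0.28). Reads on ARNT per read on ARNT2 went from 0.139 to 0.226, a ratio of ratios of 1.63 (95% interval 1.47 to 1.80). As with the other pairs outside the alpha subunits, this one was chosen after read counts had been seen. Of the coactivators, CREBBP had the highest ratio of the machinery, at 0.65 (95% interval 0.59 to 0.71), whereas its paralog EP300 was at 0.03 (-0.16 to 0.21).

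A wider list of HIF targets outside glycolysis held 31 genes, all in the table, of which 30 were tested. Their median log2 ratio was -0.14, with 2 called 2-fold higher and 4 called 2-fold lower, beside 7.56% and 5.47% of all genes. By interval alone 4 were higher and 10 lower, beside 28.4% and 28.1%, and 16 held equal expression. The remaining gene, EPO, which encodes erythropoietin, had 0 control reads and 1 sevoflurane read and was not tested.

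The targets called 2-fold lower were CXCR4, ANGPTL4, BHLHE40 and APLN. BHLHE40, a transcriptional repressor that also responds to neuronal activity and the clock, went from 1600 to 420 reads, or 95.2 to 42.3 CPM, a log2 ratio of -1.17 (95% interval -1.33 to -1.01). APLN, which encodes the vascular peptide apelin, went from 828 to 238 reads, a log2 ratio of -1.04 (95% interval -1.25 to -0.83). ANGPTL4, a secreted lipase inhibitor, had 81 and 18 reads and a log2 ratio of -1.34 (95% interval -2.24 to -0.66). CXCR4, a chemokine receptor, was the lowest of the list at -1.41 (95% interval -2.87 to -0.45), from 40 and 8 reads. It passed the filter only through the control library, where it was higher, so 3 of the 4 calls came from genes that passed in both libraries. ANGPTL4 and CXCR4 rest on few reads, whereas BHLHE40 and APLN were well counted.

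The 2 targets called 2-fold higher were the stanniocalcins, a pair of secreted glycoproteins. STC1 had 29 and 39 reads (1.12, 95% interval 0.46 to 1.93). STC2 had 17 and 27 reads (1.30, 95% interval 0.50 to 2.39), the highest of the list. Both rest on few reads, and with the control library thinned STC1 was at 0.94, under the 2-fold threshold.

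The HIF targets of glucose uptake and glycolysis, of which 15 of 16 listed were in the table and tested, had a median log2 ratio of -0.40. By interval 12 were lower and 0 higher, beside 28.1% and 28.4% of all genes, and 2 were called 2-fold lower, beside 5.47%. LDHA, which converts pyruvate to lactate, went from 2396 to 660 reads, or 143 to 66.5 CPM, a log2 ratio of -1.10 (95% interval -1.23 to -0.98). SLC16A3, the lactate exporter MCT4, had the lowest ratio, -1.65 (95% interval -2.79 to -0.87), from 69 to 12 reads. HK2, a hexokinase, had the highest at 0.08 (95% interval -0.26 to 0.42). GPI was not found under that symbol.

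Over the member targets and these 2 further lists, 52 targets were tested, of which 26 were lower and 4 higher, beside 28.1% and 28.4% of all genes, and 22 held equal expression. The targets were not matched to all genes on read number, on which such interval calls depend. Of these 52, 7 were called 2-fold lower and 2 were called 2-fold higher, beside 5.47% and 7.56%, and the median log2 ratio was -0.33. The 7 include ANKRD37 and CXCR4, which passed the filter only through the control library, and 5 passed in both libraries. These lists were drawn up with earlier results of these data known, and the counts describe the 2 libraries.

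The receptors of the secreted members were mixed. For VEGFA, the decoy receptor FLT1 was lower at -0.37 (95% interval -0.59 to -0.16), the signalling receptor KDR was at 0.03 (-0.16 to 0.22), and the coreceptor NRP1 was lower at -0.85 (-1.01 to -0.70). The coreceptor NRP2 was higher at 0.60 (95% interval 0.44 to 0.75). Of the adrenomedullin receptor, the core subunit CALCRL was lower at -0.62 (95% interval -0.93 to -0.32), while its accessory protein RAMP2 was called 2-fold higher, with 108 and 158 reads (1.29, 95% interval 0.95 to 1.67). RAMP3 had a log2 ratio of 0.39 (95% interval -0.05 to 0.85). The ligand and receptor genes of these 2 signals thus did not share one direction.

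Of 6 other angiogenic ligands, 2 were higher and 0 lower, beside 28.4% and 28.1% of all genes. PGF, a relative of VEGFA, had 15 and 23 reads and was called 2-fold higher (1.24, 95% interval 0.37 to 2.42), but it passed the filter only through the sevoflurane library, where it was higher. ANGPT2, which loosens vessels, was higher at 0.79 (95% interval 0.36 to 1.26), and with the control library thinned it was at 0.47, with an interval whose lower limit was -0.0031. Values for VEGFB (0.02), VEGFC (0.59), FIGF (-0.47) and ANGPT1 (0.28) had intervals that held equal expression.

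Markers of the cells that could carry these transcripts also differed between the libraries, and their part in the members' values was not tested. Of 9 endothelial markers, 4 were higher and 0 lower, beside 28.4% and 28.1% of all genes. Their median was 0.20, from TIE1 at -0.18 to EMCN at 0.67. Their summed level was 174 CPM in control and 196 CPM after sevoflurane, a log2 ratio of 0.17. Of 5 pericyte markers, 2 were lower and 1 higher, beside 28.1% and 28.4% of all genes, with a median of -0.14. The pericyte markers ran from KCNJ8 at -0.49 to RGS5 at 0.20, with summed levels of 396 and 414 CPM. RGS5 was the 1 higher, and the log2 ratios of the other 4 were below 0. Of 8 astrocyte markers, 5 were lower and 2 higher, beside 28.1% and 28.4% of all genes, with a median of -0.43. The astrocyte markers ran from AQP4 at -1.38 to SOX9 at 0.99, with summed levels of 6170 and 4309 CPM. Of 8 neuron markers, 6 were lower and 1 higher, beside 28.1% and 28.4% of all genes, with a median of -0.27. The neuron markers ran from NEFL at -0.56 to RBFOX3 at 0.83, with summed levels of 5298 and 4621 CPM. None of these 4 marker lists, nor the oligodendrocyte list, had a gene at 0 reads in either library.

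**Figure D4:**
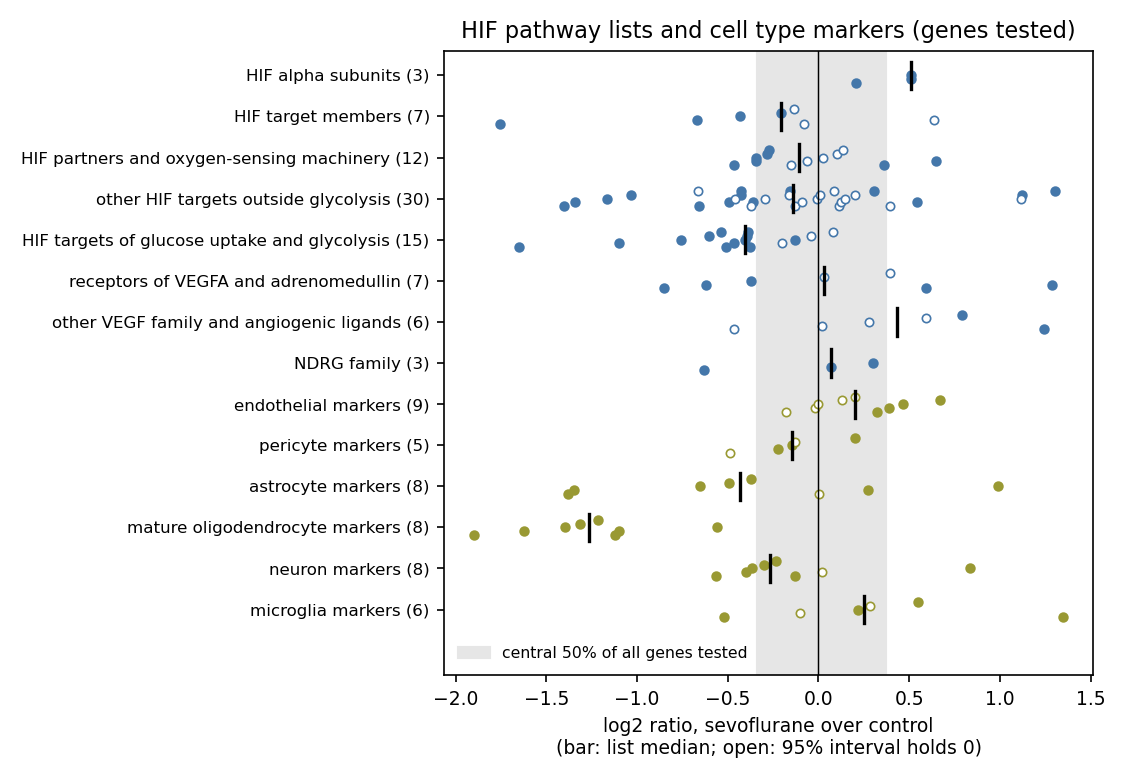
Log2 ratio of sevoflurane over control for every tested gene of the HIF pathway lists (blue) and of 6 cell type marker lists (olive), with the list median as a black bar, open points where the 95% counting interval holds equal expression, and shading for the central 50% of all genes tested. The alpha subunits lie right of 0 (median 0.51), the glycolytic HIF targets left of it (median -0.40), and the mature oligodendrocyte markers furthest left (median -1.26).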

How the data were processed

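Prefrontal cortex RNA of 2 rhesus macaques, 1 per group, was sequenced, and the libraries were assigned by title. The values deposited by the authors are raw counts of reads on each gene. The submitters' processing notes name HISAT2 2.0.4. The counting tool, genome build and annotation are not given in the sources used here, so no coordinates or sequences are printed. Without transcript lengths, levels of different genes were not compared.

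Factors were computed with edgeR 4.0.16 (R 4.3.3) by TMM on the genes tested (control 0.991, sevoflurane 1.01). Ratios and intervals were computed with Python 3.11.15, numpy 2.4.6, pandas 2.3.3 and scipy 1.17.1, and plotted with matplotlib 3.10.9. No quasi-likelihood test was possible without replicates. The procedure was tested on simulated data. Other settings were scaling by size factors (DESeq2 1.42.0), by totals or by the upper quartile, a lower prior count (0.5), other filters (1 read, 5 CPM), a control library thinned to equal depth, and thresholds of 1.5-fold and 4-fold.

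Members and lists were chosen with earlier results of these data known. Named are all members, every gene of the machinery, receptor, angiogenic ligand and NDRG lists, the 2-fold, highest and lowest genes of the other target lists, and the highest and lowest markers. LRP2BP and ARHGEF39 were named for their overlap and BNIP3L for its kinship with BNIP3. HBB and ALAS2 were named as red blood cell genes called 2-fold higher. The pairs beyond the alpha subunits were added after read counts had been seen.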

Additional observations from a re-analysis of the deposited data

How the results depend on the processing

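The log2 ratios of the 10 members stayed within their counting intervals and kept their sign in all 66 values from the other scalings, prior count, filters and the thinned control library. EPAS1 ranged from 0.49 to 0.54, EGLN3 from -0.69 to -0.64, ANKRD37 from -1.90 to -1.73 and ADM from 0.24 to 0.72. The median over the members ranged from -0.13 to -0.06. The other scalings moved the median of all genes by at most 0.027. Filtering at 5 CPM, which left fewer genes and dropped ANKRD37, ADM and CA9, gave 606 genes at least 2-fold higher and 474 lower, with 0 members lower. A threshold of 1.5-fold gave 2604 and 2141, with 2 members lower, and 4-fold gave 352 and 221, with 0 members lower, against 1364, 988 and 1 at 2-fold. With the control thinned, CA9 fell under the filter, and HIF3A was no longer called higher because its interval held equal expression. No paired analysis was possible because there is only 1 library per group, and no replicate could be left out. The sevoflurane floor of 3 reads, 0.302 CPM, limits what ADM, CA9 and ANKRD37 can show.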

Other observations

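Other cell types that the tissue could hold were looked up as well. Of 6 microglia markers, 3 were higher and 1 lower in the sevoflurane library, beside 28.4% and 28.1% of all genes. They ran from P2RY12 at -0.52 to C1QB at 1.35, and the summed level was 221 CPM in control and 238 CPM after sevoflurane. The red blood cell genes, looked up for blood left in the tissue, had summed levels of 24.8 and 80.8 CPM. Of the 4, 3 were called 2-fold higher, beside 7.56% of all genes. Of these, HBB passed in both libraries, with 350 control and 672 sevoflurane reads and a log2 ratio of 1.69 (95% interval 1.51 to 1.89). HBA1 and ALAS2 passed the filter only through the sevoflurane library, where they were higher. With the control library thinned the interval of ALAS2 held equal expression, and HBB and HBA1 were still called. HBA1 had 0 control and 70 sevoflurane reads. Its sevoflurane level was 39.5-fold the floor of 3 reads in the control library, a value that leaves out counting error. The lower 95% limit of its log2 ratio was 4.97. Its near-identical copy HBA2 had the lowest ratio of the red blood cell genes, at 0.43 (95% interval -0.13 to 1.01). How the counting split reads between these copies is not given in the sources used here. Of 5 fibroblast and choroid plexus markers, 3 were higher and 0 lower, beside 28.4% and 28.1% of all genes, with summed levels of 203 and 347 CPM. They ran from LUM at -0.11 (95% interval -0.74 to 0.49) to TTR with 2 control and 31 sevoflurane reads (95% interval of the log2 ratio 2.74 to 7.82). TTR, under the floor of 3 reads in the control library, passed the filter only through the sevoflurane library. These values stand beside the members of the hypoxia response, and their part in them was not tested.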
